A study of Mus musculus with 7 samples.

Results

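The 87 genes described here encode subunits and assembly factors of the 5 oxidative phosphorylation complexes. They are all genes measured by a probe set annotated to that gene alone whose symbol starts with Nduf, with Sdh and a letter from a to d, with Uqcr, with Atp5, or with Cox and a digit from 4 to 8, out of 12393 genes measured in this way. Of the 87, 72 are the common subunits, 33 of them in complex I, 4 in complex II, 8 in complex III, 10 in complex IV and 17 in complex V. A further 6 are complex IV isoforms known from muscle, lung or testis, and 9 are assembly factors, which match the symbol rule but are not subunits of a finished complex. Ndufa4, named as a complex I gene, was counted with complex IV, where the protein is now placed. Where several probe sets measured a gene, the brightest on average stood for it. None of the 87 was removed by a filter on low values.

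The values come from haematopoietic stem cells of mouse fetal liver at embryonic day 14.5, sorted as cells without lineage antigens and with Sca-1, c-Kit and CD150, and measured on 7 Affymetrix arrays, 1 per sample. TFIIA is a general transcription factor that steadies the TATA-binding protein on promoters, and its large subunit is normally cut into α and β chains. In 3 samples all embryos were homozygous for an uncleavable form (TFIIAα-βnc/nc, written TFIIA nc/nc below), and in 4 samples they were wild type, all from matings of heterozygous parents. The TFIIA nc/nc replicates 1 to 3 held 2, 2 and 4 embryos and the wild-type replicates 1 to 4 held 1, 1, 4 and 3. Each sample of several embryos held littermates, combined before sorting. The labels describe the samples as biological replicates and name no shared litter or batch across the genotypes.

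Oxidative phosphorylation takes place in the inner mitochondrial membrane. Complex I takes electrons from NADH and complex II from succinate, complex III passes them to cytochrome c, and complex IV hands them to oxygen. Complexes I, III and IV pump protons as they do so, and complex V, the ATP synthase, lets the protons flow back to make ATP. Nearly all subunits are encoded in the nucleus, and the rest in the mitochondrial genome. Fetal liver stem cells divide and use respiration more than the quiescent stem cells of adult marrow, which lean on glycolysis.

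Values are log2 of the deposited intensities. Array medians were 3.69 to 3.82, and pairwise correlations over all probe sets 0.966 to 0.991. The sort markers Kit, encoding c-Kit, and Slamf1, encoding CD150, read 7.50 to 9.06 and 6.12 to 6.92. Of 8 measured genes of the stem cell list 5 were lower in TFIIA nc/nc, with a median of -0.32. Gfi1, Procr and Hlf, known stem cell genes, differed by -0.77, -0.77 and -0.49 (limma, unadjusted p = 0.0242, 0.0246 and 0.0452, Benjamini-Hochberg adjusted p = 0.946 for each). In each the groups overlapped. Wild-type replicate 1 lay below TFIIA nc/nc replicate 3, at 6.35 and 6.73 for Gfi1, 6.39 and 6.58 for Procr and 7.75 and 7.95 for Hlf. Slamf1, Tek and Meis1 of the same list had a higher mean in TFIIA nc/nc. Tek is also 1 of the 18 endothelial markers given next. It read 7.47 to 7.80 in the 3 arrays of high endothelial transcripts and 6.44 to 6.86 in the other 4. The part of the differences of stem cell genes in the results below was not tested. Endothelial transcripts (mean of 18 marker genes) were high in 3 arrays, with 6.54 and 7.02 for TFIIA nc/nc replicates 1 and 2 and 6.74 for replicate 1 of wild type, and the other 4 arrays were at 4.06 to 4.23. The liver list (10 genes) averaged 4.43 to 5.26 in those 3 arrays and 3.42 to 3.70 in the other 4, with albumin (Alb) at 6.12 to 7.44 and 1.84 to 2.74. The macrophage list (10 genes) averaged 3.47 to 5.05 in TFIIA nc/nc and 2.96 to 4.35 in wild type, and the erythroid list (7 genes) 4.18 to 4.53 and 4.02 to 4.66. Of the erythroid genes 4 were higher in TFIIA nc/nc and 3 lower. Tfrc read 7.47, 7.57 and 7.42 in TFIIA nc/nc and 7.26, 6.71, 6.43 and 6.72 in wild type, without overlap. It differed by 0.71 (limma, unadjusted p = 0.00578, Benjamini-Hochberg adjusted p = 0.946). Klf1 was at 4.43 to 6.30 over the arrays, and the haemoglobin gene Hba-a1, at 1.80 to 2.75, was dim on every array. The signal of the actin control probes at the 3' end minus that at the 5' end, which depends on RNA integrity and on amplification length, was 2.95, 2.15 and 2.99 in TFIIA nc/nc and 2.92, 2.62, 1.94 and 2.12 in wild type. In a sorted bulk sample, fewer cells of a type and less RNA per cell cannot be told apart.

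The oxidative phosphorylation genes were measured slightly higher in TFIIA nc/nc, and none passed the test. Of the 87, 63 had a higher mean in TFIIA nc/nc and 24 a lower one, with a median difference of 0.088 on the log2 scale against -0.0099 over all 12393 genes, of which 48.1% were higher. After Benjamini-Hochberg adjustment of limma's p over all genes, 0 of the 87 passed 0.05, and the adjusted p of every member lay between 0.946 and 0.998. Over all genes 0.00807% passed. Before adjustment limma's p was under 0.05 for 3 members, the complex I assembly factor Ndufaf4 and the complex I subunit Ndufa5 measured higher and the testis isoform Cox6b2 measured lower, 3.45% against 4.43% of all genes. Without wild-type replicate 1 there were 9, a fit for which no share of all genes was taken. The difference was smaller than its standard error for 52 of the 87 and smaller than 0.3 for 79.

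The 3 TFIIA nc/nc arrays lay wholly above the 4 wild-type arrays for 9 members, where 3.23% of all genes did so. These were Ndufs1, Ndufb6, Ndufaf4 and Ndufaf7 of complex I and its assembly, Sdha and Sdhb of complex II, Uqcr10 and Uqcrq of complex III, and Cox5a of complex IV. The TFIIA nc/nc arrays lay wholly below for 2 members, Cox6b2 and the supercomplex factor Cox7a2l, where 3.07% of all genes did so. No complex V gene separated the genotypes. The wild-type arrays were the more spread out. The SD over the 4 wild-type arrays exceeded that over the 3 TFIIA nc/nc arrays for 75 of the 87 members, where 68.7% of all genes showed the same.

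**Figure D1:**
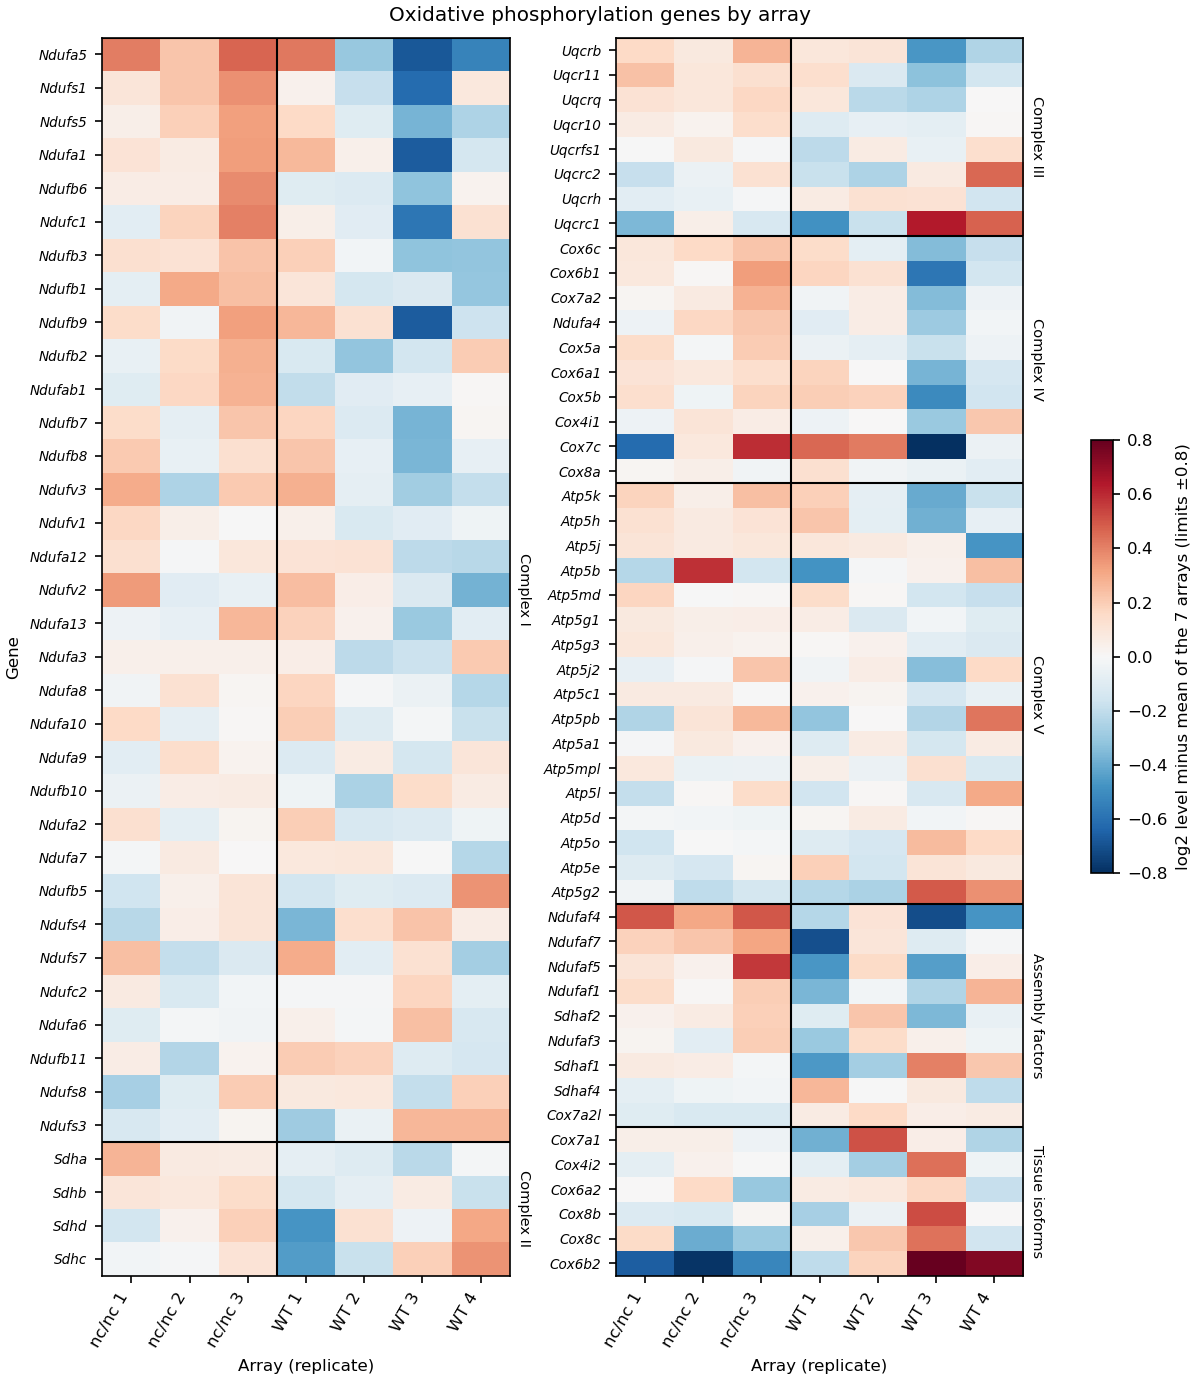
Log2 level of each of the 87 genes in each of the 7 arrays (columns), as the deviation from the gene's mean over the arrays (colour, red above and blue below), grouped by complex and ordered by genotype difference. Wild-type replicate 3 is blue for many genes at the top of complexes I and IV, and Cox6b2, at the bottom right, is red in wild-type replicates 3 and 4.

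**Figure D2:**
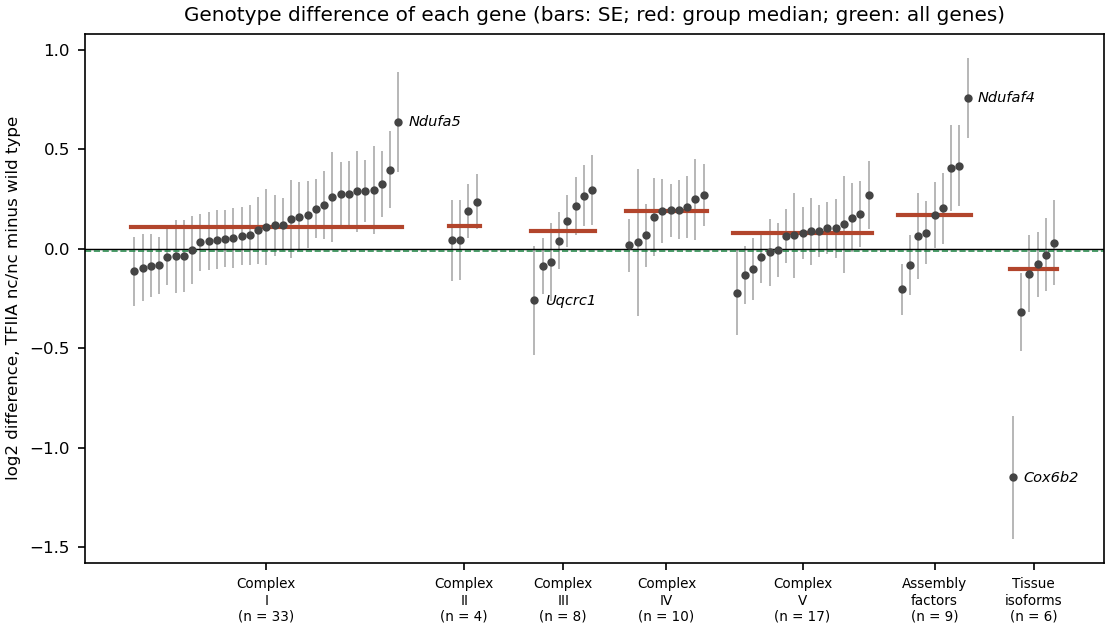
Difference between TFIIA nc/nc (3 arrays) and wild type (4 arrays) for each gene on the log2 scale, with bars for the standard error, red lines for group medians and a dashed green line for the median of all genes. Ndufa5 and Ndufaf4 stand at the top, at 0.64 and 0.76, and Cox6b2 at the bottom, at -1.15.

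Promoters of these genes are known for sites of NRF1, of the ETS factor GABP and of YY1. RefSeq (GRCm38.p6) windows from 250 bases before to 50 after the transcription start were held for 73 of the 87 genes, 78 windows in all, and were searched on both strands for exact letters. The NRF1 core GCATGCGC was in 14.1% of the members' windows and in 4.29% of the 12559 windows of genes on the array. The YY1 letters AAGATGGC were in 11.5% against 3.60%, and the GABP letters CCGGAAG in 25.6% against 14%. The TATA box letters TATAAA were in 10.3% against 9.80%, the GC box GGGCGG in 44.9% against 55.4%, CCAAT in 38.5% against 37.1%, the cyclic AMP element TGACGTCA in 3.85% against 2.52% and the E-box CACGTG in 8.97% against 9.11%. Members with the NRF1 letters had a median genotype difference of 0.19 (11 genes, 7 higher) and those without 0.0926 (62 genes, 47 higher). With the GABP letters it was 0.164 (20 genes, 15 higher) and without 0.0876 (53 genes, 39 higher). With the YY1 letters the median was lower, 0.0709 (9 genes, 7 higher), than without, 0.103 (64 genes, 47 higher), and the medians with and without were 0.0334 and 0.107 for TATAAA, 0.0915 and 0.115 for CCAAT, and 0.115 and 0.0813 for the GC box. These shares are descriptions, and the reverse complement of the NRF1 core overlaps it, so that GCGCATGCGC holds both.

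The 250 bases before the start are shown for the members with the widest differences in either direction (Ndufaf4, Ndufa5, Cox6b2) and for Sdhb and Atp5k, which carry the NRF1 letters as Ndufaf4 does. Ndufaf4, Sdhb and Atp5k were also among the members of largest positive difference in their complexes, so their direction came with the choice. Of all 11 members with the NRF1 letters 7 were higher in TFIIA nc/nc, and of the 62 without them 47 were. Uqcrc1, Atp5g2, Ndufa6 and Atp5l, not shown, also carry the letters and differed by -0.26, -0.22, -0.08 and -0.02. Capitals mark matches to any of the letters above on either strand. Counted from the start, the first NRF1 match begins at position -113 in Ndufaf4, -54 in Sdhb and -50 in Atp5k. Windows lie at chr4:24897833-24898082 (+ strand) for Ndufaf4, chr6:24527691-24527940 (- strand) for Ndufa5, chr4:140961021-140961270 (+ strand) for Sdhb, chr5:108434400-108434649 (- strand) for Atp5k and chr7:4753095-4753344 (- strand) for Cox6b2.
Ndufaf4: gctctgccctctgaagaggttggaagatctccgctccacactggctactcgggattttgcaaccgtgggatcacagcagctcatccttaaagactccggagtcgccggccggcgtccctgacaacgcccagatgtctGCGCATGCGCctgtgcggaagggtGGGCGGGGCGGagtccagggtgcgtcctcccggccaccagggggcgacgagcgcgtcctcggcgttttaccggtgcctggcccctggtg
Ndufa5: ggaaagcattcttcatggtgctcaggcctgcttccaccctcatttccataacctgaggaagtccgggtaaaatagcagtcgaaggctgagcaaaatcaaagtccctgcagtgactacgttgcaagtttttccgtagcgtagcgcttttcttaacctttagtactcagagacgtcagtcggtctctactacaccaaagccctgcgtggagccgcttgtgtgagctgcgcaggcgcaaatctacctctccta
Sdhb: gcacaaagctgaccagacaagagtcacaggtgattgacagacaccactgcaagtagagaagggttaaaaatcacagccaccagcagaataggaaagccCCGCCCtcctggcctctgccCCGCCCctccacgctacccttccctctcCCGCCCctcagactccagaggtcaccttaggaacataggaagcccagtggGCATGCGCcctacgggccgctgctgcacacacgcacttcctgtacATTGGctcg
Atp5k: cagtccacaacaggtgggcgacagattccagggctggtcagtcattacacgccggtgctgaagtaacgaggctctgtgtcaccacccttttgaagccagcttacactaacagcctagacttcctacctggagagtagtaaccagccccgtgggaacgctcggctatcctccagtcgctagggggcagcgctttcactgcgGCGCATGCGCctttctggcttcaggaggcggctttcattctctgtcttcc
Cox6b2: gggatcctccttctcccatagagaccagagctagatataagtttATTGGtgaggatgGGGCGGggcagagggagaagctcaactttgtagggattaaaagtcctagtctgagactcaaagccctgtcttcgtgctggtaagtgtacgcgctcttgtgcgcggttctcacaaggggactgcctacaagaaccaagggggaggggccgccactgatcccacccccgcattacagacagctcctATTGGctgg
Within the bases shown Ndufa5 has no match and Cox6b2 has only GC box and CCAAT letters.

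Complex I has a membrane arm and a peripheral arm, and its 33 measured subunits had a median difference of 0.11, 25 of them higher and 8 lower. The median was 0.067 without wild-type replicate 3. Ndufa5, an accessory subunit of the peripheral arm, read 8.62, 8.43 and 8.68 in TFIIA nc/nc and 8.63, 7.91, 7.53 and 7.67 in wild type. Wild-type replicate 1 lay among the TFIIA nc/nc arrays and the other 3 wild-type arrays below them. The difference was 0.64 (SE 0.25; limma, unadjusted p = 0.0308, Benjamini-Hochberg adjusted p = 0.946). Its other probe set differed by 0.33 (exact permutation p = 0.2, not adjusted), with the lowest arrays again wild-type replicates 3 and 4, at 7.64 and 7.61.

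Ndufs1, the largest subunit and an iron-sulfur protein of the arm that oxidises NADH, read 7.97, 8.09 and 8.24 in TFIIA nc/nc and 7.91, 7.69, 7.26 and 7.95 in wild type. The groups did not overlap, but TFIIA nc/nc replicate 1 lay only just above wild-type replicate 4. The difference was 0.40 (SE 0.19; limma, Benjamini-Hochberg adjusted p = 0.946), and without wild-type replicate 3 it was 0.25. Ndufv1 and Ndufv2, which bind the flavin and an iron-sulfur centre of the same arm, differed by 0.12 and 0.11. The 3 core iron-sulfur and quinone-side subunits Ndufs3, Ndufs7 and Ndufs8 differed by -0.11, -0.04 and -0.09. Ndufs3 read 9.03, 9.07 and 9.18 in TFIIA nc/nc and 8.88, 9.10, 9.42 and 9.42 in wild type, so the groups overlapped. Ndufs3 differed by -0.04 without wild-type replicate 3 or 4 and by -0.22 without replicate 1. Ndufs8 read 9.35, 9.52 and 9.82 against 9.70, 9.70, 9.43 and 9.81, and 5 further Ndufs8 probe sets differed by -0.25 to -0.03.

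Among the accessory subunits of the membrane arm, Ndufb6 read 8.92, 8.92 and 9.24 in TFIIA nc/nc and 8.76, 8.75, 8.54 and 8.89 in wild type (difference 0.29, SE 0.16). All 3 TFIIA nc/nc arrays lay above all 4 wild-type arrays, and a second Ndufb6 probe set also differed by 0.29 (exact permutation p = 0.114). Ndufs5 differed by 0.33, Ndufa1 by 0.30, Ndufc1 by 0.29, Ndufb3 by 0.27 and Ndufb9 by 0.26, and in each the lowest array was wild-type replicate 3. Ndufb1 was dim, at 4.76 to 5.37, and differed by 0.27. For Ndufb9 wild-type replicate 3 read 8.75 and the other wild-type arrays 9.24 to 9.68, and for Ndufa1 9.31 and 9.84 to 10.24. Another Ndufb9 probe set of similar brightness differed by only 0.007 (exact permutation p = 0.914, not adjusted). There wild-type replicate 3 read 9.35 and the other wild-type arrays 9.35 to 9.43. Ndufb3 was at 8.34 in both wild-type replicates 3 and 4. The largest negative differences were the -0.11 of Ndufs3 and the -0.09 of Ndufs8. Probe sets naming Ndufb4, Ndufa11 or Ndufs6 together with a gene copy stand outside the 87. They differed by 0.07 and 0.20 for Ndufb4, by -0.07 for Ndufa11 and by 0.15 for Ndufs6.

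The assembly factors of complex I had the largest median of the groups. All 5 measured ones were higher in TFIIA nc/nc, with a median of 0.41. Without wild-type replicate 1 there were 4 of 5 higher with a median of 0.244, and without TFIIA nc/nc replicate 3 the median was 0.24. Ndufaf4, which helps to join early membrane-arm intermediates, read 8.42, 8.24 and 8.42 in TFIIA nc/nc and 7.70, 8.04, 7.22 and 7.45 in wild type. Every TFIIA nc/nc array lay above every wild-type array, a 1.69-fold difference in signal (0.76, SE 0.20; limma, unadjusted p = 0.00413, Benjamini-Hochberg adjusted p = 0.946). A second, dimmer Ndufaf4 probe set read 6.09, 6.30 and 6.58 against 5.47, 6.05, 5.79 and 6.53, so its groups overlapped (difference 0.36, exact permutation p = 0.229). Ndufaf7, a methyltransferase needed for complex I assembly, read 6.14, 6.18 and 6.28 against 5.26, 6.06, 5.86 and 5.95 (difference 0.42, SE 0.20), with wild-type replicate 1 far below the rest. Without that array the Ndufaf7 difference was 0.24. Ndufaf5 differed by 0.41 with overlapping groups, Ndufaf1 by 0.20 and Ndufaf3 by 0.08. Wild-type replicate 1 was the lowest array for 4 of the 5, and without it the median of all 9 assembly factors was 0.112 against 0.172.

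**Figure D3:**
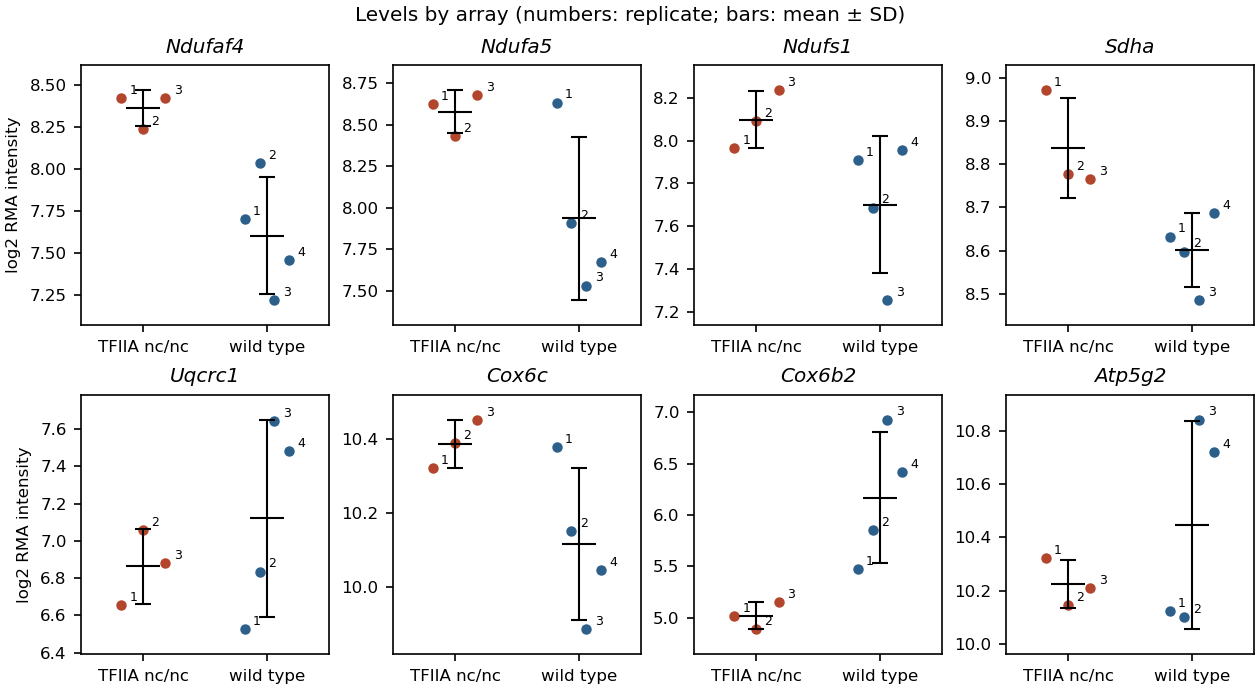
Log2 RMA intensity of 8 genes in each array, with replicate numbers beside the points and bars for mean ± SD (TFIIA nc/nc, n = 3; wild type, n = 4); each panel has its own axis. Ndufaf4, Ndufs1, Sdha and Cox6b2 separate the genotypes, while for Ndufa5, Uqcrc1, Cox6c and Atp5g2 the groups overlap.

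Complex II, succinate dehydrogenase, links the citric acid cycle to the chain. Its 4 subunits all had a higher mean in TFIIA nc/nc, with differences of 0.04 to 0.24. Sdha, the flavoprotein that oxidises succinate, read 8.97, 8.78 and 8.77 in TFIIA nc/nc and 8.63, 8.60, 8.49 and 8.69 in wild type (difference 0.24, SE 0.14), and Sdhb, the iron-sulfur subunit, read 9.30, 9.29 and 9.35 against 9.07, 9.13, 9.27 and 9.03 (0.19, SE 0.14). In both, all TFIIA nc/nc arrays lay above all wild-type arrays, narrowly for Sdhb. The second Sdha probe set differed by 0.27 with overlapping groups (exact permutation p = 0.143). The membrane anchors Sdhc and Sdhd each differed by 0.04 and varied within wild type, from 6.39 to 7.20 and from 7.93 to 8.71. The assembly factors Sdhaf1, Sdhaf2 and Sdhaf4 differed by 0.06, 0.17 and -0.08. Leaving out 1 array gave 0.076 to 0.27 for Sdhaf2 and -0.159 to -0.0033 for Sdhaf4. A dimmer Sdhaf2 probe set differed the other way, by -0.29. Without wild-type replicate 1 the median of the 4 subunits was 0.036 against 0.118 on all arrays.

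Complex III had members on both sides, with 5 of 8 higher and a median of 0.09. Uqcrb, which lies near the ubiquinone site, differed by 0.30 (12.47, 12.39 and 12.58 against 12.40, 12.41, 11.84 and 12.07), Uqcr11 by 0.27 and Uqcrq by 0.22. Wild-type replicates 1 and 2 overlapped the TFIIA nc/nc arrays for Uqcrb, and replicates 3 and 4 lay below. Without replicate 3 Uqcrb differed by 0.18. Uqcrq read 8.87, 8.84 and 8.92 against 8.84, 8.54, 8.50 and 8.76, with no overlap but nearly equal values in TFIIA nc/nc replicate 2 and wild-type replicate 1. Of 3 much dimmer Uqcrq probe sets 2 differed the other way, by -0.14 and -0.48. Uqcrc1, a core protein of the complex, differed by -0.26 (SE 0.27), the most negative difference among the common subunits when all 7 arrays were fitted. Without wild-type replicate 3 it was -0.085, without replicate 4 -0.139, without replicate 1 -0.458, and without TFIIA nc/nc replicate 1 it was -0.154. It read 6.65, 7.06 and 6.88 in TFIIA nc/nc and 6.53, 6.84, 7.64 and 7.48 in wild type, so that wild-type replicates 3 and 4 stood above all other arrays and replicates 1 and 2 did not. Uqcrh, which contacts cytochrome c1, differed by -0.09 and Uqcrc2 by -0.07, while the Rieske iron-sulfur protein Uqcrfs1 differed by 0.04. When each gene was taken by its most variable probe set (largest interquartile range), the median of complex III was -0.018, and without wild-type replicate 1 it was 0.051.

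In complex IV, cytochrome c oxidase, all 10 common subunits had a higher mean in TFIIA nc/nc, with differences of 0.02 to 0.27 and a median of 0.192. Cox6c, a small subunit, read 10.32, 10.39 and 10.45 in TFIIA nc/nc and 10.38, 10.15, 9.89 and 10.05 in wild type (0.27, SE 0.16; limma, Benjamini-Hochberg adjusted p = 0.946), with wild-type replicate 1 among the TFIIA nc/nc arrays. Cox6b1 differed by 0.25 and Cox7a2 by 0.21. Without wild-type replicate 3 these were 0.092 and 0.126, and without TFIIA nc/nc replicate 3 they were 0.154 and 0.134. Cox6b1 read 11.31, 11.24 and 11.56 against 11.40, 11.35, 10.65 and 11.08, so that wild-type replicates 3 and 4 lay below the other arrays, and its second probe set differed by 0.08. Cox5a, a nuclear-encoded subunit, read 11.13, 10.97 and 11.19 against 10.94, 10.92, 10.81 and 10.95 and was the only complex IV subunit whose groups did not overlap on the probe set used. The other 2 Cox5a probe sets differed by 0.10 and 0.11, with overlapping groups. On the probe sets used, wild-type replicate 3 was the lowest of the 7 arrays for 9 of the 10 subunits, where it was the lowest for 21.1% of all genes. On other bright probe sets it was again the lowest for Cox6b1 and Cox7a2 but not for Cox5a, Cox6a1 or Cox6c, and those of Cox5b were divided. Without wild-type replicate 3 the median of complex IV was 0.093. It was 0.157 with the most variable probe sets, 0.133 with the mean of all probe sets and 0.122 with only probe sets without a suffix letter. The signal for Cox7c, from 4.47 to 5.94 over the arrays, varied more than any other common subunit's (SD 0.61 in TFIIA nc/nc and 0.63 in wild type).

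The tissue isoforms of complex IV were the only group with a negative median, -0.10, and 5 of the 6 were lower in TFIIA nc/nc. The median was -0.0019 without wild-type replicate 3. Cox6b2, which takes the place of Cox6b1 in sperm, read 5.02, 4.89 and 5.15 in TFIIA nc/nc and 5.48, 5.85, 6.93 and 6.42 in wild type. All 3 TFIIA nc/nc arrays lay below all 4 wild-type arrays, and wild-type replicates 3 and 4 were the highest. The mean signal was 2.22-fold higher in wild type (difference -1.15, SE 0.31; limma, unadjusted p = 0.00447, Benjamini-Hochberg adjusted p = 0.946), and only this probe set measured the gene. Cox8c, also known from testis, read 4.66, 4.11 and 4.21 against 4.55, 4.72, 4.94 and 4.35, with overlapping groups (-0.32, SE 0.20). The muscle isoforms Cox8b, Cox6a2 and Cox7a1 and the lung isoform Cox4i2 were dim, at 1.95 to 3.68 in every array, below or near the array medians, and differed by -0.13, -0.08, 0.03 and -0.03. Cox7a2l, which joins complexes III and IV into supercomplexes, read 8.96, 8.94 and 8.94 in TFIIA nc/nc and 9.13, 9.22, 9.11 and 9.13 in wild type. That is a small difference between groups that did not overlap (-0.20, SE 0.13), and the other 2 Cox7a2l probe sets differed by -0.18 and -0.19 with overlapping groups.

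Complex V had the smallest median of the complexes. Of its 17 subunits 11 were higher and 6 lower, with a median of 0.081, and for 14 the difference was smaller than its standard error. Atp5k, a small membrane subunit, read 10.43, 10.30 and 10.49 in TFIIA nc/nc and 10.44, 10.18, 9.85 and 10.07 in wild type (0.27, SE 0.17), and further Atp5k probe sets, 2 in number, gave 0.26 and 0.17. Atp5h, of the stalk that holds the catalytic head in place, differed by 0.18 and Atp5j, also of the stalk, by 0.16. For Atp5j the low array was wild-type replicate 4, at 8.98, and the other 6 arrays were at 9.49 to 9.55. Without that array Atp5j differed by 0.022. Without wild-type replicate 3 Atp5h differed by 0.076 and Atp5k by 0.175, and without wild-type replicate 1 Atp5h differed by 0.277. The catalytic subunits Atp5a1 and Atp5b differed by 0.06 and 0.12, and the head's rotor subunits Atp5c1, Atp5d and Atp5e by 0.08, -0.04 and -0.13. The 3 genes for the identical subunit c of the proton-driven ring differed in direction. Atp5g1 and Atp5g3 differed by 0.10 and 0.09 and Atp5g2 by -0.22 (10.32, 10.15 and 10.21 against 10.12, 10.10, 10.84 and 10.72), where wild-type replicates 3 and 4 stood above all other arrays. Without either of these Atp5g2 differed by -0.088 and -0.128. Without wild-type replicate 3 the median of complex V was 0.037, without wild-type replicate 1 it was 0.040 and without TFIIA nc/nc replicate 2 it was 0.043.

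By array, the common subunits moved most in 2 samples. Deviations are taken from each gene's mean over the 7 arrays. The median deviation of the 72 subunits was 0.052, 0.045 and 0.108 in TFIIA nc/nc and 0.048, -0.036, -0.138 and -0.044 in wild type, so that wild-type replicate 1 lay with the TFIIA nc/nc arrays. Over all genes the medians were -0.036 to 0.010. Wild-type replicate 3 was the lowest array for 31 of the 72 subunits, where it was the lowest for 21.1% of all genes, and TFIIA nc/nc replicate 3 was the highest for 25, where it was the highest for 11.8% of all genes. Wild-type replicates 4, 1 and 2 were the lowest for 15, 10 and 9 subunits, where they were the lowest for 16.4%, 17.3% and 9.79% of all genes. Wild-type replicates 1 and 3 were the highest for 11 and 8 subunits, where they were the highest for 19.2% and 19.6% of all genes. Wild-type replicate 3 and TFIIA nc/nc replicate 3 had the lowest and the highest 3' minus 5' actin signal, 1.94 and 2.99. They also had the lowest and the highest mean of the macrophage list, 2.96 and 5.05, and each held 4 embryos. The part of these traits in the subunit values was not tested. With the actin signal as a covariate, an alternative chosen after seeing the data, the median of the 87 members was 0.071. Complexes I to V were at 0.057, 0.184, 0.11, 0.099 and 0.058, the assembly factors at 0.223 and the tissue isoforms at -0.032. Endothelial and liver transcripts were high in 3 arrays, as given above. In the other 4 arrays, of which 1 is TFIIA nc/nc, the median of the 87 members was 0.118 and 65 were higher.

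**Figure D4:**
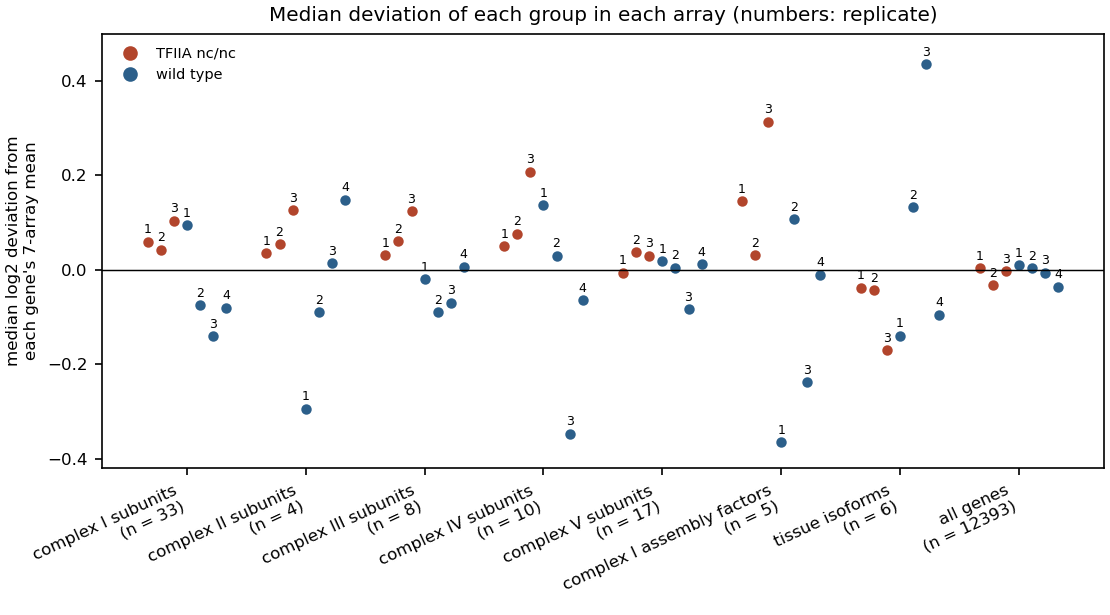
Median deviation of each group of genes from each gene's mean over the 7 arrays (log2, vertical axis), by array, with replicate numbers above the points (red, TFIIA nc/nc; blue, wild type). Complex IV is lowest in wild-type replicate 3, at -0.346, complex I assembly factors are lowest in wild-type replicate 1, at -0.364, and all genes together stay near 0.

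Genes around the complexes were counted in lists, and no gene of these lists passed limma's test after Benjamini-Hochberg adjustment over all genes. Of 14 measured genes for electron carriers and entry points of the chain, 12 were higher, with a median of 0.18. Cycs, cytochrome c itself, read 11.12, 11.11 and 11.12 in TFIIA nc/nc and 10.77, 10.78, 10.48 and 10.92 in wild type (0.38, SE 0.15), and the groups did not overlap. Cyc1, the cytochrome c1 of complex III, differed by 0.29 and Gpd2, a glycerol phosphate dehydrogenase, by 0.40. Over the alternative settings Cycs differed by 0.09 to 0.46 and Cyc1 by 0.08 to 0.41. Gpd2 read 7.10, 7.06 and 7.57 against 7.26, 7.27, 6.29 and 6.55, and differed by 0.22 without wild-type replicate 3 and 0.24 without TFIIA nc/nc replicate 3. Of 22 further assembly factors 17 were higher (median 0.097). Ecsit and Coa7 differed by 0.59 and 0.36 and Ttc19 by 0.47, and Ecsit and Ttc19 were dim, at wild-type means of 3.40 and 3.47. Of 15 citric acid cycle genes 12 were higher, with a median of 0.23. Idh3a, of the NAD-linked isocitrate dehydrogenase, read 8.30, 8.54 and 8.30 against 7.80, 7.86, 7.46 and 8.06 (0.59, SE 0.17), without overlap. Over the alternative settings Idh3a differed by 0.19 to 0.67. Pdhb differed by 0.29 and Fh1, fumarate hydratase, by 0.23.

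Of 74 mitochondrial ribosomal protein genes 53 were higher, with a median of 0.064, led by Mrpl47 (0.43), Mrpl17 (0.31) and Mrps23 (0.29). Mrpl47 was 0.23 without wild-type replicate 3, and Mrps23 was 0.19 without TFIIA nc/nc replicate 3. Over all alternative settings Mrps23 differed by 0.05 to 0.46. Of 23 import and exchange genes 20 were higher, with a median of 0.16, among them Timm8a1 (0.35), Tomm70a (0.29) and Timm13 (0.23). Regulators of mitochondrial biogenesis showed no common direction, with 9 of 16 higher and a median of 0.0073. Gabpb1, the partner of the DNA-binding subunit of GABP, read 5.48, 5.44 and 5.53 in TFIIA nc/nc and 5.79, 5.70, 6.33 and 6.65 in wild type (-0.63, SE 0.23), without overlap. The coactivator Ppargc1b read 6.69, 6.60 and 6.57 against 6.47, 6.47, 5.66 and 5.87 (0.50, SE 0.22), also without overlap, and Ppargc1a, at 1.88 to 2.85 on all arrays, was dim. Of the 13 subunits encoded in the mitochondrial genome 1 was measured, ND5 of complex I. It read 10.40, 10.52 and 10.19 in TFIIA nc/nc and 10.42, 10.30, 11.45 and 11.16 in wild type (-0.46, SE 0.28), so that the 2 arrays of lowest subunit medians, wild-type replicates 3 and 4, were the highest for ND5. The ND5 difference was -0.25 without wild-type replicate 3.

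**Figure D5:**
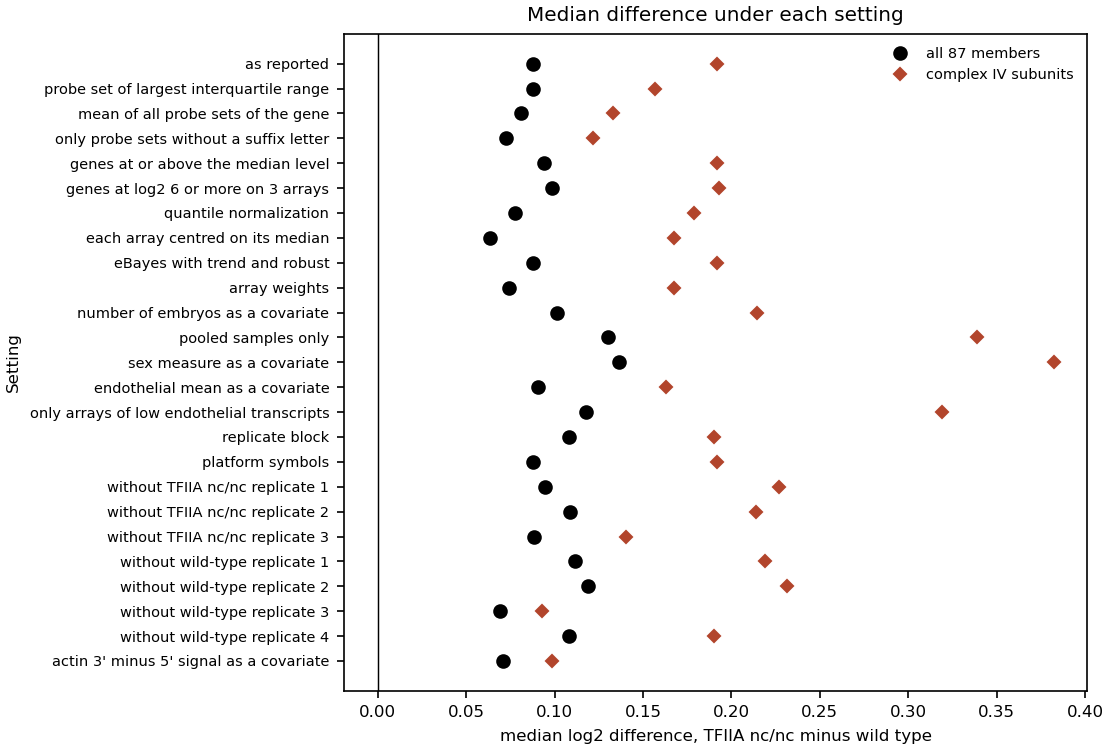
Median log2 difference (TFIIA nc/nc minus wild type) of all 87 genes (black circles) and of the 10 complex IV subunits (red diamonds) as reported and under each alternative setting. The median of the 87 genes stays between 0.063 and 0.137, and that of complex IV between 0.093 and 0.382.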

How the data were processed

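RNA from 7 sorted samples, 3 TFIIA nc/nc and 4 wild type, was measured on Affymetrix arrays. The authors deposited 1 RMA intensity per probe set and sample, which per the submitters' processing notes came from Expression Console, and no version was named. The method corrects background, aligns the arrays and summarises probes, and it tends to understate differences between dim probe sets. The values are linear, so log2 was taken without a pseudocount. Of 22690 probe sets 64 controls were left out. Of the rest, 20380 name 1 gene, 691 several and 1555 none in the platform annotation, and symbols were updated by Entrez identifier with a RefSeq table of GRCm38.p6, which altered 0 symbols. All non-control probe sets were fitted with limma 3.58.1 (lmFit, eBayes) in R 4.3.3 without covariates. The probe set of highest mean then stood for each of 12393 genes, the Benjamini-Hochberg adjustment ran over those genes, and the threshold was 0.05. Differences are TFIIA nc/nc minus wild type with standard errors (SE). For other probe sets an exact permutation test, 2-sided, used all 35 assignments, which cannot go below 0.0286. The fit was tested on simulated data. The number of arrays limits precision. Each limma p sets the difference against the spread between these samples, moderated over all probe sets, and the samples held 1 to 4 embryos. Members, lists and motifs were chosen with earlier results of these data known. Named by rule were Ndufa5, Ndufs1, in each complex up to 3 members of largest positive and up to 2 of largest negative difference (complex II had 1 negative), all tissue isoforms and up to 3 genes of smallest p per other list. Of the endothelial, liver, macrophage and erythroid lists not all of these genes are printed. Alb, Klf1 and some stem cell genes were named outside this rule. Other members were named to account for a count or a role after their values were seen. Alternatives covered probe set choice, filters, normalization, moderation, weights, covariates, the replicate number and leaving out arrays, with 1 added after seeing the data. Plots used matplotlib 3.10.9 in Python 3.11.15.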

Additional observations from a re-analysis of the deposited data

Results flagged for a closer look

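Among the 4 wild-type arrays, 1 array stood apart from the other 3 by more than Dixon's critical value in 5 of 72 sets of values examined, and chance gives about 1 in 20. For Atp5j, wild-type replicate 4 read 8.979 against 9.489 to 9.541. The median deviation of complex V subunits was -0.08383 in wild-type replicate 3 against 0.005004 to 0.01871. The other 3 were marker genes of other cells, in wild-type replicate 1, which had high endothelial transcripts. There Clec1b read 6.394 against 2.368 to 2.806, Cdh5 6.526 against 2.551 to 2.936, and the keratin Krt18 5.807 against 6.449 to 6.568.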

How the results depend on the processing

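Under all 24 alternatives, 23 planned and 1 added, the median difference of the members stayed positive, from 0.0634 (each array centred on its median) to 0.137 (a sex measure as a covariate), and 0 members passed the threshold. Between 45 and 66 members were higher, 45 being of the fewer genes with a probe set without a suffix letter. Leaving out 1 array gave medians of 0.0693 to 0.119. Members with an unadjusted p under 0.05 numbered 2 to 17, with 17 under the sex covariate, 14 with pooled samples only, 7 with array weights and 9 without wild-type replicate 1. The share of all genes was not taken under these alternatives, so the counts alone do not show an excess among the members. Of the 29 members named by rule, 19 kept their direction under every alternative they could be fitted in. The labels do not say that equal replicate numbers pair the samples. Deviations of same-numbered arrays correlated at 0.382, -0.193 and 0.105, and those of other arrays across the genotypes at -0.548 to 0.384. With so few arrays these values cannot decide whether samples were paired. With the replicate block the median was 0.108 and 62 members were higher, and Cox7a1 differed by -0.0435. With the sex covariate the complex IV median was 0.382. Reversals under probe set choice were -0.0181 for the complex III median, -0.294 and -0.0611 for Sdhaf2, -0.485 and -0.0382 for Uqcrq, -0.0625 for Mrpl17 (in both settings where it turned) and -0.0109 for Ppargc1a. Others were 0.0167 for Ndufs3 with the endothelial covariate, 0.0636 for Ndufs8 with the sex covariate, 0.0171 for Sdhaf4 with pooled samples, and 0.0740 for Cox4i2 and -0.110 for Cox7a1 with array weights. Cox4i2 was 0.0636 with the actin covariate. In the arrays of low endothelial transcripts Ndufs8 was 0.175, Sdhaf4 0.0211, Atp5e 0.00109 and Cox7a1 -0.149. Leaving out 1 array gave -0.223 to 0.0125 for Ndufs8, -0.125 to 0.112 for Cox4i2, -0.181 to 0.0495 for Cox6a2, -0.0906 to 0.207 for Cox7a1 and -0.232 to 0.0305 for Cox8b. The cause of these changes was not tested.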
